A study of Homo sapiens with 16 samples.

Results

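Levels of 7 transcripts that encode feedback inhibitors of receptor tyrosine kinase signalling were followed in human skin fibroblasts: the Sprouty genes SPRY1, SPRY2 and SPRY4, the SPRED genes SPRED1, SPRED2 and SPRED3, and ERRFI1. They were chosen by name, with earlier results of these data known, and are 7 of the 28374 genes in the deposited count table. All 7 were among the 18575 genes with enough counts to be tested. The cells were CCD-1070Sk, a line of normal human skin fibroblasts, and every group was serum starved. Of the 6 groups, control (3 libraries) received no further treatment, EGF (3 libraries) received epidermal growth factor at 30 ng/ml for 1 h, and TPA (2 libraries) received the phorbol ester TPA at 100 nM for 1 h. The H89 group (3 libraries) received the kinase inhibitor H89 at 10 µM, labelled as 30 min of pretreatment at 0 h. EGF+H89 (2 libraries) and TPA+H89 (2 libraries) received 30 min of H89 before 1 h of the mitogen, so the time in H89 may differ between H89 alone and the combinations. All results come from 1 cell line. The labels do not say that libraries were grown as separate cultures, and the p-values reflect the spread among these libraries, which may be technical.

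Growth factor receptors signal through RAS, RAF, MEK and ERK, and ERK in turn switches on genes whose products limit the same pathway. Sprouty proteins are membrane-associated adaptors that restrain RAS and ERK activation by several receptors. SPRED proteins carry a related domain and bring the RAS GTPase-activating protein neurofibromin to the membrane, where it turns RAS off. ERRFI1, also called MIG6, binds the kinase domain of the EGF receptor and inhibits it directly. EGF enters this pathway at its receptor, while TPA activates protein kinase C and reaches RAS and ERK from there. H89 inhibits protein kinase A and the kinases MSK1 and MSK2, which act below ERK and p38 and phosphorylate histone H3 and the transcription factor CREB.

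The promoters of SPRY2, SPRY4 and ERRFI1 are shown because these 3 members had the highest fitted fold changes over control after each mitogen. The RefSeq table of promoters held all 7 members. Each sequence is the 250 bases before the annotated start on GRCh38.p14, read 5′ to 3′ on the strand of the gene, which is the minus strand for all 3. The window lies at chr13:80341127-80341376 for the first of 3 SPRY2 starts, at chr5:142324248-142324497 for SPRY4 and at chr1:8026310-8026559 for ERRFI1. Capitals mark TGACG, the half-site of the cAMP response element bound by CREB, or GCGGGGGCG, a site bound by EGR factors (CGCCCCCGC where it lies on the opposite strand).
SPRY2: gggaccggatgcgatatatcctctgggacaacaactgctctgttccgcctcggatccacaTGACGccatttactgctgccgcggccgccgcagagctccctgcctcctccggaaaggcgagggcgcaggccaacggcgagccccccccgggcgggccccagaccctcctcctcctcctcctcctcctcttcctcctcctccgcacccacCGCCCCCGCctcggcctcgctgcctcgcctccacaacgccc
SPRY4: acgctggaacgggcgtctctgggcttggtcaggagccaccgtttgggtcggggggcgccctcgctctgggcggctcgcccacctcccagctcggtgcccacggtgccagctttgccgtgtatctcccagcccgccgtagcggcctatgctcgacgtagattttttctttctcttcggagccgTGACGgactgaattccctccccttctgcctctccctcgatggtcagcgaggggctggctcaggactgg
ERRFI1: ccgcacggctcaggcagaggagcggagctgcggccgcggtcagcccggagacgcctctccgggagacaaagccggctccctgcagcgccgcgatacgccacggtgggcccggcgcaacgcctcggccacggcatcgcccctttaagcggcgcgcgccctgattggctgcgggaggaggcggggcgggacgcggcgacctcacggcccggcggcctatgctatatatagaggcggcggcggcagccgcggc
With the base before the start counted as -1, the half-site began at -190 and the EGR match at -41 in SPRY2, and the half-site at -68 in SPRY4. Both strands were searched for TGACG, for the full cAMP response element TGACGTCA that contains it, for the AP-1 site TGANTCA, for GCGGGGGCG and for the CArG box bound by SRF. The ERRFI1 window held none of these letters, nor did the windows of the other SPRY2 starts. Among the members not shown, GCGGGGGCG began at -28 before SPRY1 start 2 and TGANTCA at -60 before SPRED3 start 1. Among 35116 promoter windows of this length, TGACG was in 21.2%, TGACGTCA in 1.65%, TGANTCA in 6.57%, GCGGGGGCG in 4.72% and a CArG box in 1.16%. A match is a description of the letters only.

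Library totals ran from 7527026 counts (TPA+H89 1) to 130075914 counts (TPA 2). Control 3 and control 4 held equal counts at 100% of 19340 genes so the pair entered once, as control 3, and 15 of 16 libraries were used. The libraries fell into 3 technical batches that the labels do not name and that were read from the counts. The first batch was control 1 and EGF 1, in which more genes had a count of 1 than of 2. These 2 libraries differed in mitochondrial ribosomal RNA (RNR1 and RNR2), at 4.48% of counts in control 1 and 0.0183% in EGF 1. The batch with ribosomal reads was control 2, EGF 2 and replicate 1 of the other 4 groups. These RNAs took 24.8% to 30.4% of counts in control 2, EGF 2, H89 1 and EGF+H89 1. In TPA 1 and TPA+H89 1 they took 11.7% and 12%. Comparisons of either TPA group with the other groups within this batch carry that gap, which cannot be told apart from TPA. The batch term does not remove it. In the batch without these reads (the other 7 libraries) the share was 0%. The summed level of 9 fibroblast markers was 20600 to 58300 CPM (each gene's share of the library's counts, on the usual CPM scale), against 6.75 to 44.5 for 5 keratinocyte, 1.78 to 7.02 for 4 endothelial, 1.07 to 2.94 for 4 melanocyte and 0.149 to 2.99 for 4 leukocyte markers. The keratinocyte sum reached its 44.5 CPM in the TPA group, and its part in any result was not tested. In such bulk RNA, fewer cells expressing a gene and less RNA per cell cannot be told apart.

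Levels are in CPM, with library sizes scaled by TMM, edgeR's trimmed mean method. Per kilobase of annotated exon, the mean control level was 12.3 CPM for SPRED1, 6.16 for ERRFI1, 5.83 for SPRY2, 4.37 for SPRY1, 3.51 for SPRED2, 2.93 for SPRY4 and 1.17 for SPRED3. SPRED1 was thus the most abundant member per length in unstimulated cells and SPRED3 the least. Genes that overlap on the same or the opposite strand are annotated at SPRY4, SPRED2 and ERRFI1, and whether the counting used strand is not given in the sources used here.

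**Figure D1:**
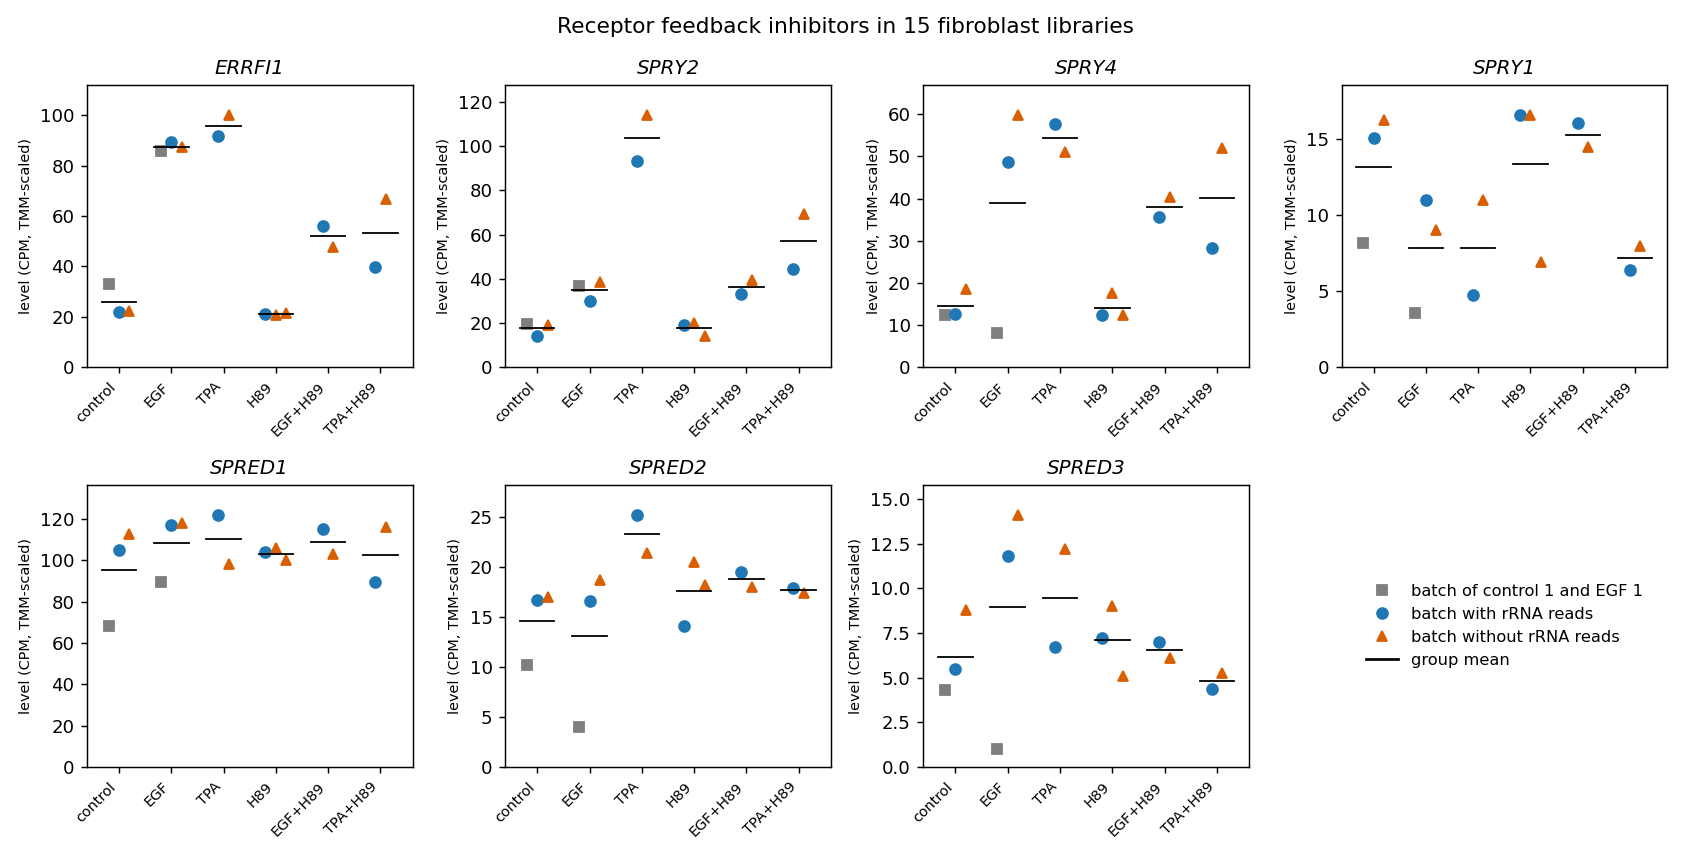
Level of each member (CPM, TMM-scaled, vertical axis) in each of the 15 libraries, by treatment group (horizontal axis). Squares are control 1 and EGF 1, circles the batch with ribosomal reads, triangles the batch without them, and bars group means. ERRFI1, SPRY2 and SPRY4 stand higher in both TPA libraries than in all 3 controls, and EGF 1 is the lowest of all libraries for SPRY4, SPRY1, SPRED2 and SPRED3.

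ERRFI1, the direct inhibitor of the EGF receptor, rose after both mitogens. Its level was 32.9, 21.8 and 22.4 CPM in the 3 control libraries, 85.6, 89.4 and 87.3 CPM in the 3 EGF libraries, and 91.7 and 100 CPM in the 2 TPA libraries. Every EGF and every TPA library lay above every control. The rise was 3.4-fold with EGF, a log2 fold change of 1.77 ± 0.23 (SE, edgeR's quasi-likelihood test, Benjamini-Hochberg adjusted p = 0.0207). With TPA it was 3.74-fold, 1.90 ± 0.25 on the log2 scale (edgeR adjusted p = 0.00688). A term for the technical batch left both calls in place, at 1.79 (adjusted p = 0.00165) and 2.01 (adjusted p = 0.000683). Within the 3 batches in the order above the EGF difference in log2 CPM was 1.38, 2.04 and 1.96, and within the last 2 the TPA difference was 2.07 and 2.16. Each call depended on single libraries: the adjusted p for EGF was 0.52 without control 2, 0.159 without control 3, 0.0946 without EGF 2 and 0.0919 without EGF 3, and that for TPA was 0.109 without control 2, 0.0522 without control 3 and 0.0599 without TPA 2.

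SPRY2, the Sprouty with the most transcript per length in control cells, was the member with the largest fitted response to TPA. It stood at 19.7, 14.3 and 19.2 CPM in control, 36.6, 29.8 and 38.6 CPM in EGF, and 93.3 and 114 CPM in TPA. The 3 groups did not overlap, with EGF between control and TPA. The TPA rise was 5.85-fold, a log2 fold change of 2.55 ± 0.27 (edgeR adjusted p = 0.00131), and it was 2.71 and 2.58 in log2 CPM within the batches with and without ribosomal reads. It passed with each control library left out in turn. With 1 control or TPA library left out the log2 fold change was 2.39 to 2.66. For EGF the log2 fold change was 0.98 ± 0.24, with 0.89, 1.06 and 1.01 in the 3 batches, and it missed the threshold (edgeR adjusted p = 0.521, or 0.106 with the batch term). DESeq2 gave this difference an adjusted p of 0.0413.

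SPRY4, a Sprouty that restrains signalling through RAS and RAF, had EGF libraries that disagreed. Control libraries were at 12.4, 12.7 and 18.5 CPM, EGF libraries at 8.25, 48.7 and 59.8 CPM, and TPA libraries at 57.6 and 51.1 CPM. EGF 1 lay below every control, whereas EGF 2, EGF 3 and both TPA libraries lay above them. The log2 fold change was 1.42 ± 0.52 with EGF (edgeR adjusted p = 1) and 1.90 ± 0.57 with TPA (edgeR adjusted p = 0.22, and 0.0406 by DESeq2). Within batches the EGF difference was -0.59, 1.94 and 1.69 in log2 CPM, and the TPA difference was 2.17 and 1.46. Without EGF 1 the EGF log2 fold change was 1.89 and passed the test (edgeR adjusted p = 0.0436). SPRY4-IT1, a noncoding transcript annotated within SPRY4, was at 0.109, 0.36 and 0.772 CPM in control, 0.201, 2.29 and 1.98 CPM in EGF, and 2.32 and 3.71 CPM in TPA. Its EGF 1 library was again far below EGF 2 and EGF 3, and its reads may not be separable from those of SPRY4.

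SPRY1, a Sprouty known for limiting growth factor signalling in the developing kidney, had its lowest levels among mitogen-treated libraries. It was at 8.19, 15.1 and 16.3 CPM in control, 3.55, 11 and 9.02 CPM in EGF, and 4.77 and 11 CPM in TPA. The groups overlapped through control 1. The log2 fold change was -0.75 ± 0.47 with EGF and -0.73 ± 0.54 with TPA, and neither passed (edgeR adjusted p = 1 and 0.526). The difference was negative within each batch, at -1.2, -0.46 and -0.85 in log2 CPM for EGF and -1.65 and -0.56 for TPA.

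SPRED1, SPRED2 and SPRED3 did not pass the test after either mitogen. SPRED1 was at 68.4, 105 and 113 CPM in control, 89.7, 117 and 118 CPM in EGF, and 122 and 98.3 CPM in TPA. These ranges overlapped, and the log2 fold changes were 0.18 ± 0.23 and 0.21 ± 0.26, with 95% intervals of -0.32 to 0.68 and -0.35 to 0.76. SPRED2 was at 10.2, 16.7 and 17 CPM in control, 3.99, 16.6 and 18.7 CPM in EGF, and 25.2 and 21.4 CPM in TPA. Both TPA libraries were above every control, yet the log2 fold change of 0.67 ± 0.47 did not pass (edgeR adjusted p = 0.509), and that for EGF was -0.16 ± 0.43. SPRED3 was at 4.3, 5.46 and 8.76 CPM in control, 1, 11.8 and 14.1 CPM in EGF, and 6.72 and 12.2 CPM in TPA. Its log2 fold changes were 0.54 ± 0.65 and 0.62 ± 0.72, and with the batch term 0 and -0.1, so the fitted direction depended on the model. Within batches the EGF difference was -2.05 (EGF 1 against control 1), 1.1 and 0.69 in log2 CPM, and the TPA difference was 0.3 and 0.48.

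**Figure D2:**
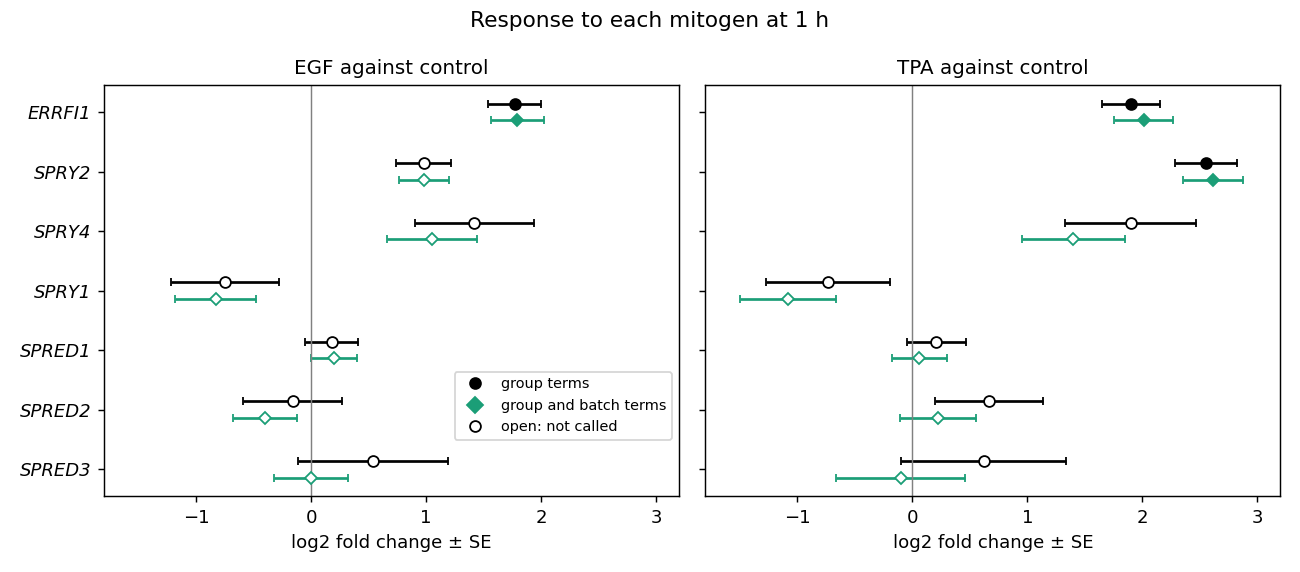
Log2 fold change against control with its SE (horizontal axis) for each member (vertical axis) after EGF (left) and TPA (right), from the model with group terms (black circles) and with group and batch terms (green diamonds). Filled symbols passed an adjusted p of 0.05: ERRFI1 for both mitogens, at 1.77 and 1.90 with group terms, and SPRY2 for TPA, at 2.55.

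Of the 7 members, 1 was called after EGF (ERRFI1), where 0.0269% of all tested genes were called, or 0.221% with the batch term, which also called ERRFI1 only. For TPA 2 of 7 were called by either model, ERRFI1 and SPRY2, where 0.415% and 1.25% of all genes were called. DESeq2 called 2 members for EGF and 3 for TPA, against 0.307% and 2.84% of genes. At an unadjusted p under 0.05 in edgeR there were 3 members for each mitogen, against 1.63% and 13.2% of genes. All EGF libraries lay above all controls for 2 members, against 2.97% of all genes, and all TPA libraries for 4 members, against 9.6%. The median log2 fold change was 0.54 over the members and 0.02 over all genes with EGF, and 0.67 and -0.02 with TPA. The EGF and TPA comparisons share their controls. Because the members were chosen with earlier results of these data known, the counts beside the shares of all genes are a description only.

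SPRY2 was higher in both TPA libraries than in any EGF library, though the call depended on the model. The log2 fold change of TPA over EGF was 1.57 ± 0.26, with a 95% interval of 1.01 to 2.13 (edgeR adjusted p = 0.212). Within the 2 batches that hold both it was 1.65 and 1.57. In the first of these, mitochondrial ribosomal RNA took 26.6% of counts in EGF 2 and 11.7% in TPA 1. That gap and the mitogen cannot be told apart there. With the batch term the difference was 1.63 and passed (edgeR adjusted p = 0.0125), as it did in DESeq2 (0.000125). With 1 EGF or TPA library left out it was 1.42 to 1.68. ERRFI1 differed by 0.14 ± 0.25 between TPA and EGF, with an interval of -0.41 to 0.68, and SPRY4 by 0.48 ± 0.56. edgeR with group terms called 0 of 7 members here, where it called 0% of all genes. At an unadjusted p under 0.05 there was 1, against 13.4% of all genes, so 1 of 7 is near the background. DESeq2 called 1, against 1.58% of genes, and the batch term called 1, against 0.334%. TPA libraries all lay above EGF libraries for 3 members, ERRFI1, SPRY2 and SPRED2, against 9.71% of genes.

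H89 alone was compared with control to give the background for the combined treatments. ERRFI1 was at 21.1, 20.7 and 21.6 CPM in the 3 H89 libraries, each just below the lowest control, with a log2 fold change of -0.28 ± 0.23. SPRY2 was at 19, 20 and 14.1 CPM, SPRY4 at 12.3, 17.7 and 12.5 CPM and SPRY1 at 16.6, 16.6 and 6.92 CPM. These 3 overlapped control, as did the SPREDs, with SPRED1 at 100 to 106, SPRED2 at 14.1 to 20.5 and SPRED3 at 5.07 to 8.99 CPM. edgeR called 0 of 7 members with either model, where it called 0% of all genes, and DESeq2 called 0, against 0.0162% of genes. At an unadjusted p under 0.05 there were 0, against 3.27% of genes. ERRFI1 was the 1 member with all H89 libraries below control, against 4.25% of genes.

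With H89 before EGF, ERRFI1 was at 56 and 47.8 CPM, below all 3 EGF libraries and above all control and H89 libraries. The log2 difference from EGF was -0.75 ± 0.26, with a 95% interval of -1.31 to -0.19 (edgeR adjusted p = 1), and it was -0.67 and -0.87 within the 2 batches that hold both. SPRY2 was at 33.2 and 39.6 CPM, the first within the EGF range and the second just above it, and its log2 difference of 0.06 ± 0.26 had an interval of -0.51 to 0.63. SPRY4, at 35.7 and 40.5 CPM, differed by -0.03 ± 0.57 over all libraries but by -0.45 and -0.56 within batches, where EGF 1 does not enter. SPRY1, at 16.1 and 14.5 CPM, lay above every EGF library, with a log2 difference of 0.97 ± 0.52 (edgeR adjusted p = 1). The SPREDs overlapped EGF, at 115 and 103 CPM for SPRED1, 19.5 and 18 CPM for SPRED2 and 7.01 and 6.09 CPM for SPRED3. edgeR called 0 of 7 members with either model, where it called 0% of all genes, DESeq2 called 0, against 0.00538%, and 1 was at an unadjusted p under 0.05, against 1.67%. The 1 member wholly higher (SPRY1) and the 1 wholly lower (ERRFI1) compare with 7.6% and 10.1% of genes.

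With H89 before TPA, ERRFI1 and SPRY2 were both lower than with TPA alone, without passing the adjusted test. ERRFI1 was at 39.7 and 66.8 CPM, a log2 difference of -0.85 ± 0.28 (edgeR adjusted p = 0.713), with a 95% interval of -1.45 to -0.24. SPRY2 was at 44.6 and 69.4 CPM, a log2 difference of -0.86 ± 0.29 (edgeR adjusted p = 0.713), with a 95% interval of -1.49 to -0.23. For both genes each TPA+H89 library lay below each TPA library and above each control, and within the batches with and without ribosomal reads the differences were -1.21 and -0.59 for ERRFI1 and -1.06 and -0.72 for SPRY2. SPRY4 was at 28.2 and 51.9 CPM, overlapping TPA. TPA+H89 1, the lower library for these 3 genes, is also the one with the fewest counts, and the part of depth in this was not tested. SPRY1 was at 6.38 and 8 CPM, SPRED1 at 89.7 and 116 CPM, SPRED2 at 17.9 and 17.4 CPM and SPRED3 at 4.37 and 5.28 CPM. edgeR called 0 of 7 members with either model, where it called 0% of all genes, and 2 were at an unadjusted p under 0.05, against 7% of genes. DESeq2 called 0, against 0.0538% of genes, but gave an adjusted p for ERRFI1 and SPRED1 only and none for the other 5 members. TPA+H89 was wholly below TPA for 4 members, ERRFI1, SPRY2, SPRED2 and SPRED3, against 11.1% of genes, and the median log2 difference was -0.43 over the members and -0.02 over all genes.

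**Figure D3:**
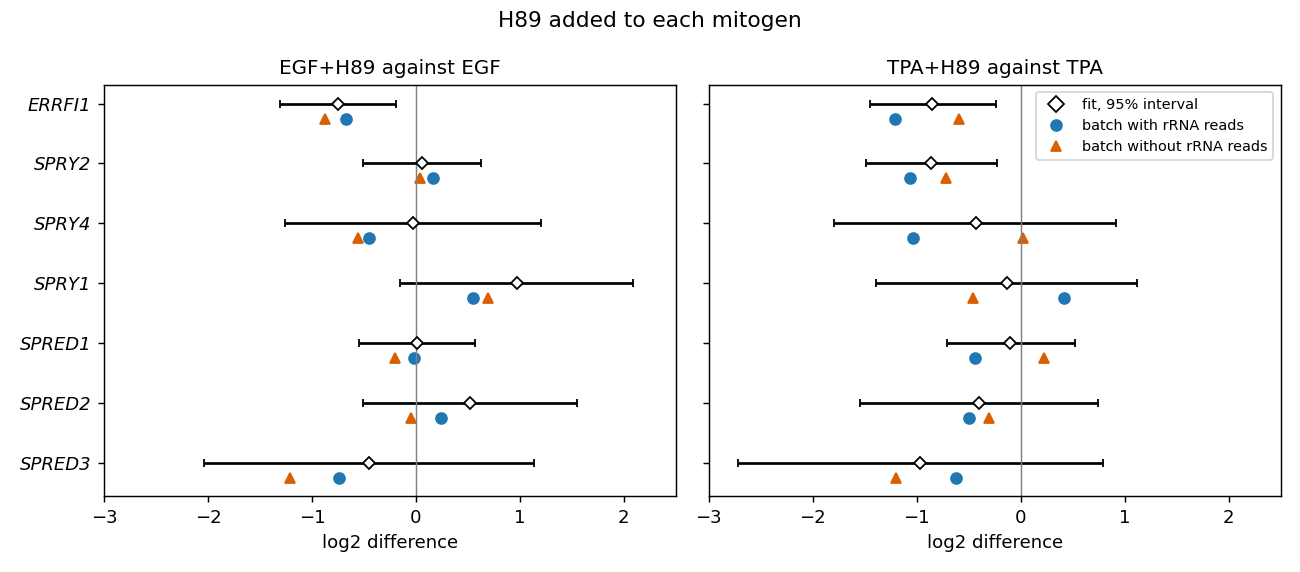
Log2 difference of EGF+H89 from EGF (left) and of TPA+H89 from TPA (right) for each member (vertical axis), none of which passed the adjusted test. Open diamonds are the model's estimate with its 95% interval, circles and triangles the differences in log2 CPM within the batches with and without ribosomal reads. ERRFI1 is below 0 under both mitogens, at -0.75 and -0.85, while SPRY2 is at 0.06 under EGF and -0.86 under TPA.

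The difference between those H89 effects was itself computed, as a contrast chosen after the values were seen. For SPRY2 the H89 effect under TPA minus that under EGF was -0.92 ± 0.39 on the log2 scale (edgeR adjusted p = 1), and for ERRFI1 it was -0.09 ± 0.38. edgeR called 0 genes for this contrast, with 554 at an unadjusted p under 0.05, and DESeq2 was not run on it. The interaction with H89, which takes the effect of H89 alone off that in mitogen-treated cells, was -0.47 ± 0.34 for ERRFI1 with EGF. With TPA it was -0.57 ± 0.36 for ERRFI1 and -0.86 ± 0.38 for SPRY2 (edgeR adjusted p = 0.9). For both interactions edgeR called 0 of 7 members and 0% of all genes with either model, and DESeq2 called 0 members and 0% of genes. At an unadjusted p under 0.05 there were 0 members for EGF and 1 for TPA, against 0.258% and 4.78% of genes.

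The response to each mitogen was also measured in the presence of H89. Against H89 alone, SPRY2 rose 3.23-fold in TPA+H89, a log2 fold change of 1.69 ± 0.26 (edgeR adjusted p = 0.0327), and this call was lost without H89 1, H89 2, H89 3 or TPA+H89 2, at adjusted p of 0.157 to 0.191. ERRFI1 had log2 fold changes of 1.29 ± 0.25 in EGF+H89 (edgeR adjusted p = 0.244) and 1.34 ± 0.25 in TPA+H89 (edgeR adjusted p = 0.0993), and both passed with the batch term, at 0.0297 and 0.0164. SPRY2 in EGF+H89 was at 1.04 ± 0.26 and SPRY4 at 1.43 ± 0.56, against 1.51 ± 0.56 for SPRY4 in TPA+H89, none of which passed. For EGF+H89 edgeR called 0 of 7 members where 0.0269% of genes were called, 3 were at an unadjusted p under 0.05, against 1.53% of genes, and DESeq2 called 1, against 0.275%. With the batch term it called 1, where 0.269% of genes were called. For TPA+H89 it called 1, where 0.0969% of genes were called, and 2 with the batch term, where 0.431% were. DESeq2 called 2 there, against 0.409% of genes, and 3 were at an unadjusted p under 0.05, against 3.89%. In both comparisons the groups did not overlap for the same 3 members, ERRFI1, SPRY2 and SPRY4, against 10.7% and 9.92% of genes. Both comparisons share the H89 libraries.

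Across all 6 groups the order of levels could be read for the 2 called genes. ERRFI1 was lowest in H89 and control, whose difference did not pass the test, was intermediate in EGF+H89 and TPA+H89, which overlapped each other, and was highest in EGF and TPA, whose difference did not pass either. With group terms its steps from H89 to the combinations, and from the combinations to EGF and TPA, did not pass. SPRY2 was lowest in control and H89, which overlapped, followed by EGF and EGF+H89, which overlapped, then TPA+H89 and then TPA. With group terms its steps from control to EGF, from EGF to TPA and from TPA+H89 to TPA did not pass (edgeR adjusted p = 0.521, 0.212 and 0.713). The TPA+H89 libraries of SPRY2, at 44.6 and 69.4 CPM, lay above the EGF+H89 libraries, at 33.2 and 39.6 CPM, and this difference was not tested.

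**Figure D4:**
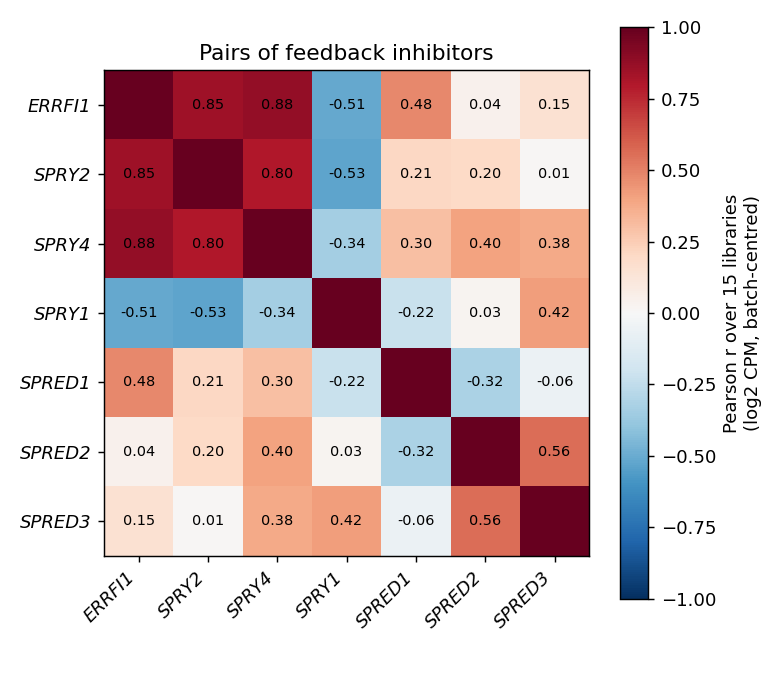
Pearson r between each pair of members over 15 libraries, from log2 CPM centred within technical batches; both axes list the members and the colour scale runs from -1 to 1. ERRFI1, SPRY2 and SPRY4 form a block with r of 0.80 to 0.88, and SPRY1 is negative with all 3. Without the centring, which is not drawn, the block has r of 0.68 to 0.82 and SPRY1 with SPRY4 is at 0.03.

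ERRFI1, SPRY2 and SPRY4 varied together over the 15 libraries. In log2 CPM centred within batches, Pearson r was 0.88 for SPRY4 with ERRFI1, 0.85 for SPRY2 with ERRFI1 and 0.80 for SPRY2 with SPRY4. SPRY1 had r of -0.53 with SPRY2 and -0.51 with ERRFI1, and SPRED2 with SPRED3 had 0.56. Without centring the first 3 were 0.68, 0.82 and 0.74, and the last 3 were -0.39, -0.49 and 0.82. These are descriptions over libraries that share treatments, batches and scaling. Among 13457 other genes, those most like SPRY2 by the same measure were NR4A3 (r = 0.963), MCL1 (0.962) and PPP1R15A (0.958). Those most like ERRFI1 were EAF1 (0.976), DUSP5 (0.975) and SLC2A3 (0.966), and those most like SPRY4 were KDM6A (0.935), LIF (0.932) and FOSL1 (0.93). For SPRY1 they were CD74 (0.929), CXCL14 (0.921) and IL15RA (0.921). For the SPREDs they included CENPC (0.898), C16orf52 (0.885) and ZNF100 (0.87) with SPRED1, STK35 (0.936) and FOXJ2 (0.911) with SPRED2, and MLLT6 (0.893), PLEKHG2 (0.888) and ATP6V0A1 (0.878) with SPRED3. Without the centring, of the genes named only NR4A3, MCL1, DUSP5, FOSL1, CXCL14 and ATP6V0A1 stayed among the 3 of highest r. Others fell, such as EAF1 to rank 59 (r = 0.807), FOXJ2 to 1128 (0.727) and IL15RA to 1157 (0.562).

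The rest of the pathway was read from 5 gene lists, all of whose genes were tested. Of 14 receptor tyrosine kinases, 18 genes of the RAS to ERK core and 15 partners of Sprouty and SPRED or RAS GTPase-activating proteins, edgeR called 0 after EGF or TPA with either model. The lowest p after TPA were those of PDGFRA, a PDGF receptor (log2 fold change -0.86), among the receptors and DYRK1A, a kinase that binds Sprouty (0.50), among the partners, and after EGF those of AXL (-0.53), BRAF (-0.37) and DAB2IP (-0.69). Of 12 other negative regulators of receptors and ERK, 1 rose with each mitogen: DUSP5, a nuclear ERK phosphatase, at a log2 fold change of 2.62 ± 0.30 with EGF (edgeR adjusted p = 0.0162) and 3.72 ± 0.33 with TPA (edgeR adjusted p = 0.000821). DUSP5 also rose in TPA+H89 over H89 (1.93 ± 0.31, edgeR adjusted p = 0.0413), and had log2 differences of -1.16 ± 0.33 with H89 before EGF and -1.78 ± 0.35 with H89 before TPA, neither called. With the batch term SOCS3, an inhibitor of cytokine receptor signalling, was called as well after TPA (2.66, edgeR adjusted p = 0.018). Of 10 genes driven by ERK 0 were called with group terms, while the batch term called MYC after EGF (1.19, edgeR adjusted p = 0.0369) and 3 after TPA, among them FOSL1 (2.87) and MYC (2.11). The median log2 fold change after EGF and TPA was -0.25 and -0.19 for the receptors, -0.07 and 0.26 for the RAS to ERK core, -0.07 and 0.40 for the partners, 0.18 and 0.28 for the other negative regulators and 0.15 and 0.80 for the ERK-driven genes.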

How the data were processed

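Per the labels' protocols, a Ribo-Zero step took ribosomal RNA out of total RNA, libraries kept strand, and 3 sequencers were used, with no sequencer named for a given sample. The deposited values are raw counts per gene. The submitters' processing notes name HOMER, hg19 and GRCh37; the aligner is not given in the sources used here. Groups came from the labels. The members and gene lists were chosen with earlier results of these data known.

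Genes were kept by filterByExpr (smallest count 10) and libraries scaled by TMM. All 15 libraries were fitted with a term per group by edgeR 4.0.16 (R 4.3.3), using its quasi-likelihood test with Benjamini-Hochberg adjustment over all 18575 genes at 0.05. The SE is the log2 fold change over the root of the test's F. Technical batches were set by more genes at a count of 1 than of 2 (first batch), then by RNR1 and RNR2 above 1% of counts. Log2 CPM used a prior count of 2. The genes of a list that are named were those called (up to 4), or else that of lowest p; the genes most like a member were the 3 of highest r among genes with a mean of at least 1 CPM. Some genes that these rules name are not reported here. Alternatives were DESeq2 1.42.0, its size factors, no filter, only the compared groups, a batch term, leaving out each library, and leaving out control 1, EGF 1 and TPA 2. The scripts were tested on simulated data. Exon lengths came from a GRCh38 annotation, not that of the counts.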

Additional observations from a re-analysis of the deposited data

How the results depend on the processing

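The number of members called depended on the setting. For EGF against control it was 1, with 2 by DESeq2, 0 with only the compared groups and 0 to 2 when 1 library was left out. Of all genes, 5 of 18575 were called with group terms, 57 by DESeq2, 0 of 15858 with only the compared groups and 0 to 10 without 1 library. For TPA against control 2 members were called, with 3 by DESeq2, 0 with only the compared groups and 1 to 2 when 1 control was left out. Of all genes, 77 of 18575 were called with group terms, 527 by DESeq2, 0 of 15923 with only the compared groups and 13 to 31 without 1 control. For TPA against EGF 0 members were called, with 1 by DESeq2, 1 with the batch term and 0 when 1 EGF library was left out. Of all genes, 0 of 18575 were called with group terms, 294 by DESeq2, 62 with the batch term and 0 without 1 EGF library. For EGF+H89 against H89 0 members were called, with 1 each by DESeq2, with only the compared groups, with the batch term and without control 1, EGF 1 and TPA 2. Of all genes, 5 of 18575 were called with group terms, 51 by DESeq2 and 49 of 15631 with only the compared groups. The batch term called 50 genes, and leaving out those 3 libraries gave 45 of 16919. For TPA+H89 against H89 1 member was called, with 2 by DESeq2, 0 without the low-count filter, 0 with only the compared groups, 2 with the batch term, 3 without those 3 libraries and 0 when 1 H89 library was left out. Of all genes, 18 of 18575 were called with group terms, 76 by DESeq2, 19 of 25356 without the filter and 20 of 16130 with only the compared groups. The batch term called 80 genes, leaving out those 3 libraries gave 79 of 16919, and leaving out 1 H89 library gave 0 to 1. Fitting only the compared groups leaves fewer samples, and adjusted p was then 0.674 and 0.368 for ERRFI1 after EGF and TPA and 0.157 for SPRY2 after TPA.

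Log2 fold changes that changed sign were all of differences that were not called. With the batch term SPRED3 was at 0 after EGF and -0.1 after TPA, and without the 3 libraries it was at -0.09 after TPA and SPRED2 at 0.07 after EGF. Without the filter SPRY4 was at 0.03 in EGF+H89 against EGF. Leaving out 1 library gave 0 to 0.32 for SPRED1 and -0.51 to 0.26 for SPRED2 after EGF, -0.51 to 0.42 for SPRY4, -0.07 to 0.22 for SPRY2 and -0.99 to 0.05 for SPRED3 in EGF+H89 against EGF, and -0.95 to 0 for SPRY4 in TPA+H89 against TPA. Of the printed member values under the alternatives, 372 kept direction and side of the threshold, 16 lost a call, 14 gained one and 14 changed sign. Most of the 372 were of differences not called with group terms. Only ERRFI1 after EGF and after TPA, and SPRY2 after TPA and in TPA+H89 against H89, could lose a call. A DESeq2 value with no adjusted p was counted as not called. The cause was not tested. No fit was blocked by replicate number, because sample names carry none that groups share. The names do run in an order in which the treatments recur as sets, and no such set holds both EGF and TPA libraries. The labels do not say what these sets are, and no fit was blocked by them. The batch term, which merges some of them, is the blocked fit that was run. Groups of 2 or 3 libraries limit the precision, and the lowest count of a member was 24, for SPRED3 in TPA+H89 1.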
